A study of Oryza sativa with 12 samples.

Results

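A set of 4 rice genes of phosphate scavenging was followed through 12 leaf blade libraries: the purple acid phosphatase genes LOC_Os01g56880 and LOC_Os12g44030, and the glycerophosphodiesterase genes LOC_Os02g31030 and LOC_Os08g42390. They are 4 of the 32846 genes in the deposited tables. The set was chosen by gene family and by measured values, namely expression in these leaves and wide differences among the low-phosphate wild-type libraries. Values from those libraries are therefore given as a description, with no test. The libraries formed 4 groups of 3 from rice (Oryza sativa), either wild type (WT) or an Oshmgb1 mutant, with high or low inorganic phosphate (Pi). High-Pi plants received high Pi for 21 d, and low-Pi plants received high Pi for 14 d and low Pi for a further 7 d. The design text gives 200 µM for both supplies, so the concentration used as low Pi is not clear. The labels do not give the type of Oshmgb1 allele, the number of mutant lines, or whether replicates came from separate plants, so p-values cover only the variation among these libraries, part or all of it possibly technical.

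Plants short of Pi release it from organic compounds. Purple acid phosphatases are metalloenzymes that split phosphate from organic esters, and many are secreted or held in the cell wall. Glycerophosphodiesterases act further along membrane lipid breakdown: they cut glycerophosphodiesters, the deacylated remains of phospholipids, into glycerol-3-phosphate and an alcohol. OsHMGB1 belongs to the high mobility group B proteins, which bind DNA in chromatin.

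Expression was measured as FPKM, a fragment count adjusted for transcript length and for the mapped total, so levels may be compared between genes within the limits of that scale. Summed FPKM lay between 549457 and 583292 per library, and between 16093 and 16976 genes reached an FPKM of 1. LOC_Os06g51220, described as HMG1/2 and equated with OsHMGB1 on outside knowledge, lay between 516.41 and 725.71 FPKM in the 6 mutant libraries and between 1176.75 and 2146.98 FPKM in the 6 WT libraries. The leaf markers were abundant throughout: all 4 RuBisCO small chain loci were above 0 in every library, and so were 16 of 17 chlorophyll A-B binding protein loci. The RuBisCO sums ran from 11760 to 13090 FPKM in WT at high Pi, and were 8368, 16080 and 10720 FPKM in WT low-Pi libraries 1, 2 and 3. In the mutant they ran from 11580 to 16950 FPKM with high Pi and from 6454 to 10510 FPKM with low Pi. The chlorophyll A-B binding protein sums were 28620, 45040 and 31810 FPKM in WT low-Pi libraries 1, 2 and 3, and lay between 23430 and 34010 FPKM in the other 9 libraries. Among markers of dividing tissue, the 5 cyclin-A or cyclin-B loci summed to 23.64 to 24.04 FPKM in WT at high Pi and 24.33 to 26.5 FPKM in WT at low Pi, and to 20.81 to 23.93 and 27.22 to 28.13 FPKM in the mutant. The 43 core histone loci, 34 of them above 0 in every library and 5 at 0 in every library, summed to 1746, 2233 and 3717 FPKM in WT low-Pi libraries 1, 2 and 3. Elsewhere that sum ran from 1220 to 1449 FPKM in WT at high Pi, from 1939 to 2318 FPKM in the mutant at high Pi and from 1365 to 1643 FPKM in the mutant at low Pi. WT low-Pi library 3 thus stood apart in the histone sum and WT low-Pi library 2 in the chlorophyll A-B binding protein sum. The RuBisCO sum was highest in mutant high-Pi library 2 (16950 FPKM) and lowest in mutant low-Pi library 2 (6454 FPKM). WT low-Pi library 3 also held the highest value of LOC_Os02g31030, and the fold differences that include this library are given without it as well.

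The purple acid phosphatase gene LOC_Os01g56880 is annotated to the extracellular region, the cell wall and the cellular response to phosphate starvation. Its FPKM was 4.96, 4.85 and 5.19 in WT at high Pi, and 5.88, 5.61 and 4.68 in the mutant at high Pi. At low Pi it was 8.45, 11.34 and 13.74 in WT, and 14.35, 13.86 and 18.92 in the mutant. Each low-Pi library was above each high-Pi library in both genotypes, and each mutant low-Pi library was above each WT low-Pi library. The order of the group means was the mutant at low Pi (15.7 ± 2.79 FPKM, SD, n = 3), WT at low Pi (11.2 ± 2.65), the mutant at high Pi (5.39 ± 0.63) and WT at high Pi (5.0 ± 0.17). Only the last pair of neighbours in this order overlapped in their libraries.

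LOC_Os12g44030, the other purple acid phosphatase gene, is annotated to the extracellular space and to manganese ion binding. Its FPKM was 6.63, 7.48 and 5.92 in WT at high Pi and 6.25, 5.74 and 7.74 in the mutant at high Pi. Under low Pi the values were 8.39, 10.71 and 7.94 in WT and 10.83, 10.19 and 12.14 in the mutant. Low-Pi libraries were above high-Pi libraries within each genotype, by a smaller margin than for LOC_Os01g56880. The mean was highest in the mutant at low Pi (11.1 ± 0.99 FPKM, SD, n = 3) and next in WT at low Pi (9.01 ± 1.49), and the libraries of these groups overlapped. Both high-Pi groups lay below them, at 6.68 ± 0.78 in WT and 6.58 ± 1.04 in the mutant, and overlapped each other.

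LOC_Os02g31030 and LOC_Os08g42390 share the description glycerophosphoryl diester phosphodiesterase family protein, the KEGG orthologue K18696, and the terms cellular phosphate ion homeostasis and glycerophospholipid catabolic process. Their levels differed. LOC_Os02g31030 was barely detected at high Pi, with 0.71, 0.83 and 0.30 FPKM in WT and 0.53, 0.46 and 0.50 FPKM in the mutant. At low Pi it reached 7.23, 16.46 and 62.94 FPKM in WT and 14.58, 10.39 and 16.04 FPKM in the mutant. The low-Pi and high-Pi libraries did not come near each other in either genotype, but the WT low-Pi libraries were spread so widely that they enclosed those of the mutant. The group means at low Pi were 28.9 ± 29.9 FPKM in WT (SD, n = 3) and 13.7 ± 2.93 in the mutant, and at high Pi 0.61 ± 0.28 and 0.50 ± 0.035. Without WT low-Pi library 3, the WT low-Pi mean was 11.9 FPKM, below that of the mutant.

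LOC_Os08g42390 was expressed at both supplies. Its FPKM was 2.21, 2.22 and 2.72 in WT at high Pi, and 4.06, 2.35 and 1.66 in the mutant at high Pi. At low Pi it was 5.69, 4.87 and 6.69 in WT and 3.87, 4.73 and 5.34 in the mutant. In WT the low-Pi libraries were all higher than the high-Pi ones, whereas in the mutant high-Pi library 1 lay above low-Pi library 1. The group means ran from WT at low Pi (5.75 ± 0.91 FPKM, SD, n = 3) through the mutant at low Pi (4.65 ± 0.74) and the mutant at high Pi (2.69 ± 1.24) to WT at high Pi (2.38 ± 0.29), with overlapping libraries at every step.

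**Figure D1:**
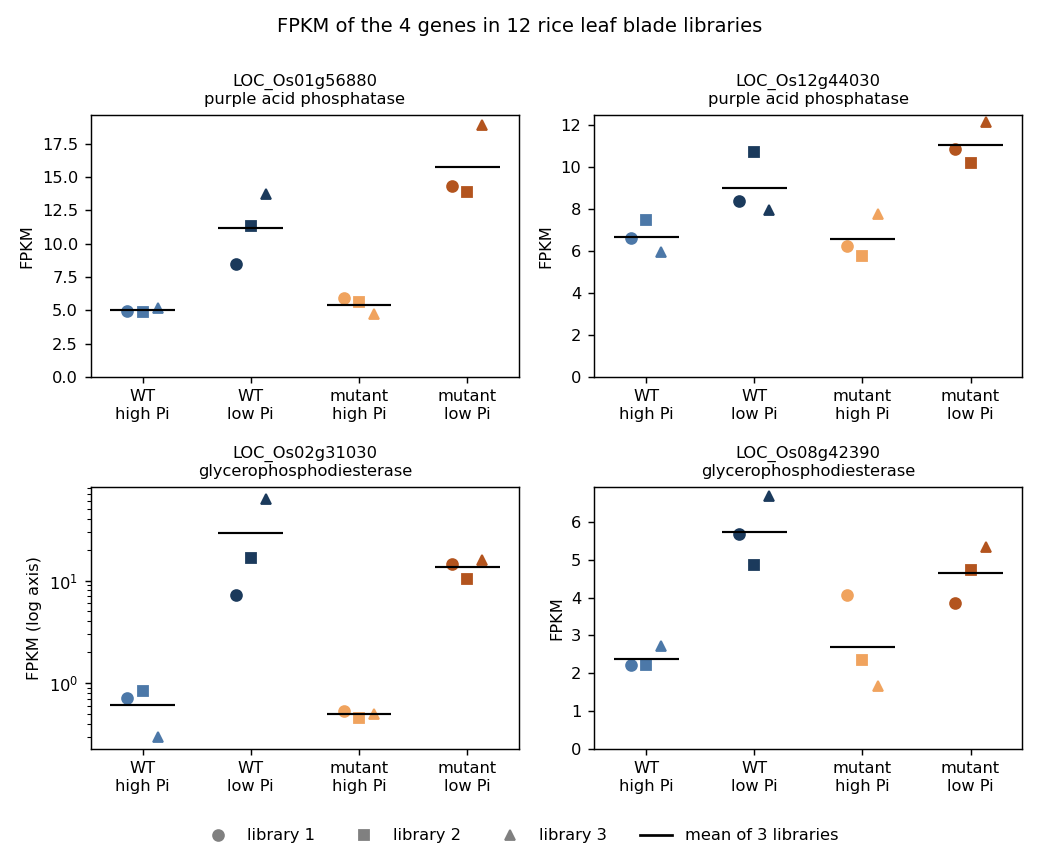
FPKM of the 4 genes (y axis, logarithmic for LOC_Os02g31030 only) in the 4 groups (x axis); symbols mark libraries 1 to 3 and lines the group means. LOC_Os02g31030 runs from 0.30 to 62.94 FPKM, and its WT low-Pi libraries are the most widely spread, whereas the libraries of the other 3 genes lie between 1.66 and 18.92 FPKM.

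The response to low Pi was tested in the mutant, whose group means hold no WT library, although the SE of the fit pools the spread of all 12 libraries. LOC_Os02g31030 rose most, with a ratio of mean FPKM of 27.5. It passed the filter of FPKM 1 in 3 libraries only through its 6 low-Pi libraries, and the set was chosen by expression in these leaves. Its rise is therefore described without a test. In the limma fit with no such filter, over 28212 genes, its log2 fold was 3.27 ± 0.56 (SE). In the filtered fits its SE was 0.54, against 0.26 without WT low-Pi library 3, 0.38 without WT low-Pi library 1 and 0.16 in the fit to the 6 mutant libraries. LOC_Os01g56880 rose 2.92-fold in mean FPKM, with a log2 fold of 1.38 ± 0.16 and an adjusted p of 0.000315. LOC_Os12g44030 rose 1.68-fold, with a log2 fold of 0.68 ± 0.14 and an adjusted p of 0.00608. In LOC_Os02g31030, LOC_Os01g56880 and LOC_Os12g44030 all 3 low-Pi libraries lay above all 3 high-Pi libraries. The log2 folds are differences in log2(FPKM + 1), a scale that understates the change of weakly expressed genes, and those of the other 3 genes were tested with limma over 17630 genes with Benjamini-Hochberg adjustment. LOC_Os08g42390 had a 1.73-fold higher mean at low Pi and a log2 fold of 0.66 ± 0.21, just past the threshold of 0.05 at an adjusted p of 0.0465 (limma), although its libraries overlapped. That call was lost in 15 of 19 alternatives, and without mutant high-Pi library 1, the high one, the fold was 0.91.

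In the filtered fit all 4 of the 4 genes were called higher, where 10.5% of the genes tested were called higher and 8.28% lower. With no filter LOC_Os08g42390 was not called (adjusted p 0.0853, limma), and 1756 of 28212 genes were called higher and 1213 lower. In the filtered fit without mutant low-Pi library 2, 1137 of 17546 genes were called higher and 848 lower, and without mutant high-Pi library 2, 1120 of 17576 and 892. The count supports nothing by itself: the genes were proposed with these results known, and LOC_Os02g31030, given how it passed the filter, had to differ. LOC_Os08g06110, a MYB gene annotated to circadian rhythm, ran in the mutant from 448.15 to 496.03 FPKM under high Pi and from 60.66 to 72.64 FPKM under low Pi. In WT it was at 253.52 to 295.2 and at 32.25 to 47.94 FPKM. The labels state no harvest hour, and its part in the Pi comparisons was not tested. The RuBisCO, cyclin and core histone sums also separated the supplies in the mutant, and their part was not tested. At low Pi the cyclin sum was higher there, whereas the RuBisCO and core histone sums were lower. In leaf tissue as a whole, more cells of a type and more RNA per cell cannot be told apart.

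In WT, low against high Pi is described without a test. The ratio of mean FPKM was 47.1 for LOC_Os02g31030, 2.24 for LOC_Os01g56880, 2.41 for LOC_Os08g42390 and 1.35 for LOC_Os12g44030. The libraries of both supplies were apart for each gene. Without WT low-Pi library 3 the ratios were 19.3, 1.98, 2.22 and 1.43 in the same order, so the value of LOC_Os02g31030 rests largely on that library. On the log2(FPKM + 1) scale the differences were 3.71 ± 0.54 (SE) for LOC_Os02g31030, 1.00 ± 0.16 for LOC_Os01g56880, 0.99 ± 0.21 for LOC_Os08g42390 and 0.38 ± 0.14 for LOC_Os12g44030. Without that library they were 2.91 ± 0.29, 0.85 ± 0.16, 0.89 ± 0.23 and 0.45 ± 0.15. With median-of-ratios scaling and all libraries they were 3.63, 0.92, 0.92 and 0.30. Over the whole table, 8.43% of tested genes (1487 of 17630) were called higher in this contrast, and 636 of 17492 without WT low-Pi library 3. Calls of the 4 genes are not given, since the choice used these libraries. Of all genes called in this contrast, 63.4% were higher, against 56.4% without that library, 47.0% with median-of-ratios scaling and 50.2% with upper-quartile scaling.

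The WT low-Pi libraries differed for LOC_Os02g31030 by a factor of 8.71 between the highest and the lowest. The median of this ratio over tested genes was 1.27, and 61 of 17548 genes (0.348%) had a ratio as large. In the mutant at low Pi the ratio for LOC_Os02g31030 was 1.54, beside a median of 1.24 over tested genes. The other 3 genes had ratios in WT at low Pi of 1.63 (LOC_Os01g56880), 1.37 (LOC_Os08g42390) and 1.35 (LOC_Os12g44030). Library 3 was the highest for LOC_Os02g31030, LOC_Os01g56880 and LOC_Os08g42390, and the lowest for LOC_Os12g44030, whose highest was library 2. Over all tested genes, library 3 was the highest for 42.6%, library 1 for 39.2% and library 2 for 18.2%. These shares are of unscaled FPKM. The median-of-ratios scaling factors of WT low-Pi libraries 1, 2 and 3 were 1.076, 1.001 and 1.089, and their part in the shares was not tested. Among the 1616 tested genes with a ratio of 2 or more, 284 (17.6%) had the order of LOC_Os02g31030, highest in library 3 and lowest in library 1.

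The SPX domain genes LOC_Os02g10780 and LOC_Os06g40120, members of a family of Pi sensors, had that order too. LOC_Os02g10780 was at 16.65, 36.28 and 105.72 FPKM in WT low-Pi libraries 1, 2 and 3, and LOC_Os06g40120 at 16.49, 32.72 and 76.56 FPKM. In the mutant at low Pi they were at 38.42, 23.61 and 32.96 FPKM and at 29.82, 18.44 and 30.27 FPKM, with library 2 lowest, as it was for LOC_Os02g31030, LOC_Os01g56880 and LOC_Os12g44030. The core histone sum followed the order of LOC_Os02g31030 over the WT low-Pi libraries, and its part in these values was not tested. Mutant low-Pi library 2 was also the lowest of its group in the RuBisCO (6454 FPKM), chlorophyll A-B binding protein (23430) and core histone (1365) sums. It was the highest in the cyclin sum (28.13), and LOC_Os08g42390 was lowest in library 1. The share of all tested genes lowest in mutant low-Pi library 2 was not counted, so nothing is read from the shared order there.

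**Figure D2:**
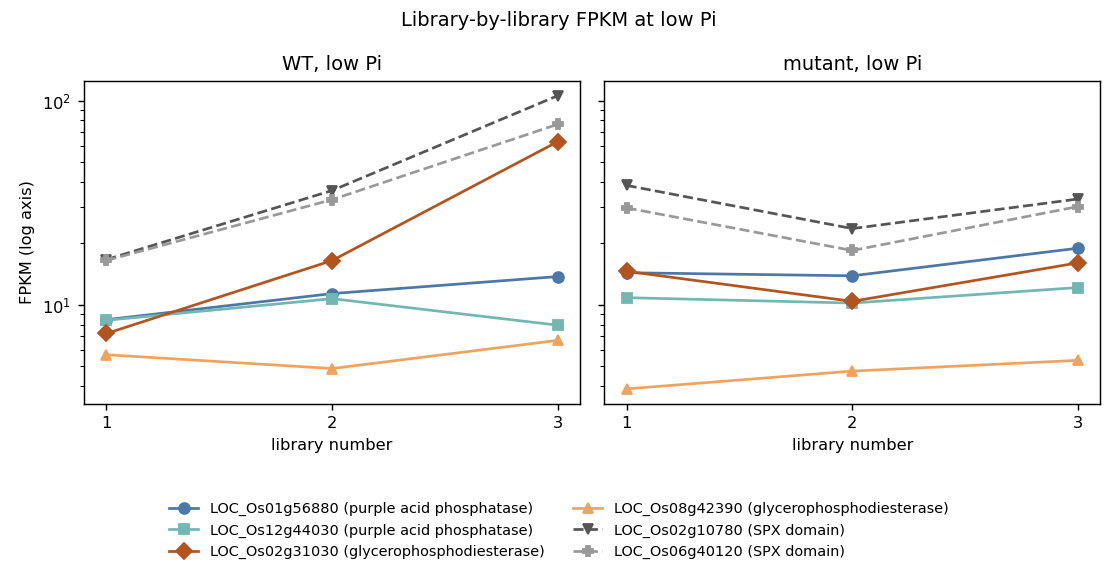
FPKM (logarithmic y axis) in libraries 1 to 3 (x axis) of WT and of the mutant at low Pi, for the 4 genes (solid lines) and the SPX domain genes LOC_Os02g10780 and LOC_Os06g40120 (dashed lines); lines join libraries of no natural order. In WT, LOC_Os02g31030 goes from 7.23 to 62.94 FPKM and both SPX genes stand highest in library 3, whereas in the mutant LOC_Os02g31030 stays between 10.39 and 16.04 FPKM.

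The mutant was compared with WT at high Pi, a contrast of means without the WT low-Pi libraries, which enter its SE. None of the 4 genes was called by limma, against 3.58% of tested genes called in either direction (from 176 of 17551 to 845 of 17542 with 1 library left out). None had an unadjusted p below 0.05, against 3860 of 17630 tested genes. The log2 fold of mutant over WT was 0.09 ± 0.16 (SE) for LOC_Os01g56880, adjusted p 0.792, and -0.02 ± 0.14 for LOC_Os12g44030, adjusted p 0.945. It was -0.09 ± 0.54 for LOC_Os02g31030, adjusted p 0.941, and 0.08 ± 0.21 for LOC_Os08g42390, adjusted p 0.864. The libraries of both genotypes overlapped for each gene. The level of LOC_Os02g31030 was below 1 FPKM in these libraries, and the gene entered this fit only through its low-Pi libraries. Its SE was 0.26 without WT low-Pi library 3 and 0.38 without WT low-Pi library 1. At such levels and with such an SE a difference could hardly be called, so the missing call says little about this gene.

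At low Pi the mutant and WT are described without a test, since the contrast holds the WT low-Pi libraries. The phosphatase genes stood higher in the mutant: mean FPKM was 1.41 times that of WT for LOC_Os01g56880, with libraries apart, and 1.23 times for LOC_Os12g44030, with libraries overlapping. The glycerophosphodiesterase genes stood lower on average, at 0.473 times the WT mean for LOC_Os02g31030 and 0.808 times for LOC_Os08g42390, with libraries overlapping in both. On the log2 scale the differences were 0.47 ± 0.16 (SE), 0.27 ± 0.14, -0.53 ± 0.54 and -0.26 ± 0.21 in that order of genes. Without WT low-Pi library 3 they were 0.62 ± 0.16, 0.20 ± 0.15, 0.27 ± 0.29 and -0.16 ± 0.23, so that of LOC_Os02g31030 changed sign. With median-of-ratios scaling they were 0.56, 0.36, -0.44 and -0.17. The median over all tested genes was -0.072 without scaling and 0.012 with it. The log2 difference between genotypes in their low-Pi response (mutant minus WT) was 0.38 ± 0.23 for LOC_Os01g56880, 0.30 ± 0.19 for LOC_Os12g44030, -0.44 ± 0.76 for LOC_Os02g31030 and -0.33 ± 0.29 for LOC_Os08g42390. Without that library it was 0.53 ± 0.21, 0.22 ± 0.20, 0.36 ± 0.39 and -0.24 ± 0.31, again with a change of sign for LOC_Os02g31030.

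**Figure D3:**
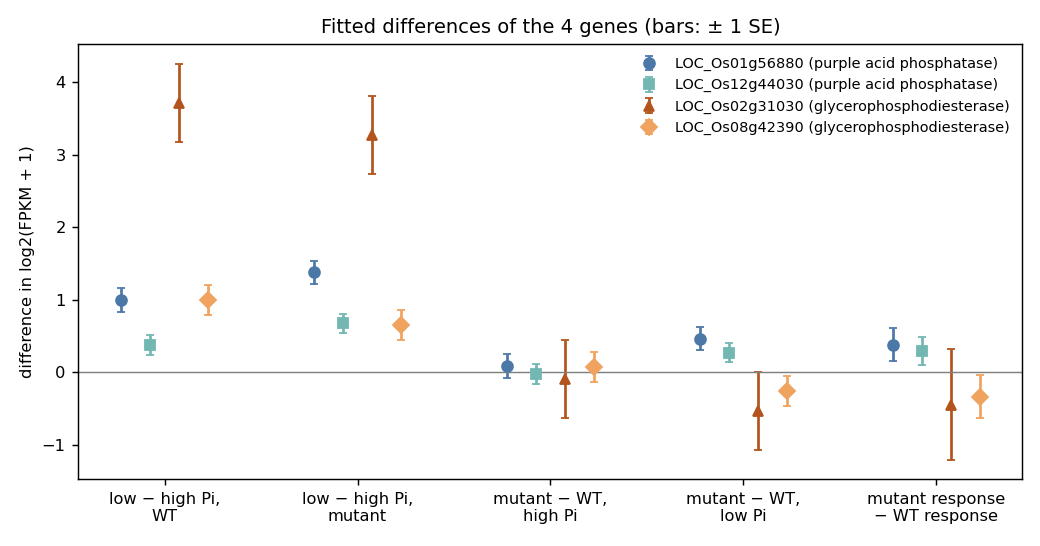
Fitted differences in log2(FPKM + 1) (y axis) with bars of 1 SE for the 4 genes in 5 contrasts (x axis). Of these, the low-Pi response of the mutant (LOC_Os02g31030 excepted) and the genotype difference at high Pi were tested. Differences at high Pi lie between -0.09 and 0.09, and the low-Pi responses between 0.38 and 3.71.

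Of 5 loci described as purple acid phosphatase, LOC_Os01g56880 and LOC_Os12g44030 passed the filter, and the other 3 reached at most 0.40 FPKM in any library. A locus with another description, ATPAP18/PAP18, was more abundant than both: LOC_Os03g37130 lay between 33.54 and 47.62 FPKM, with a log2 fold to low Pi in the mutant of 0.24 ± 0.12 (SE), adjusted p 0.190 (limma). LOC_Os12g44030 has IDs of its own family beside it: LOC_Os12g44010 lay between 0.00 and 0.40 FPKM and LOC_Os12g44050 at or below 0.08 FPKM. LOC_Os12g44020, a Ser/Thr protein phosphatase family locus annotated to acid phosphatase activity, lay between 5.11 and 9.31 FPKM over the 12 libraries, with a log2 fold to low Pi in the mutant of -0.05. The sources used here do not say how reads shared by near-identical copies were counted, so values within this group are uncertain to that extent.

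Of 13 loci described as glycerophosphodiesterases, 6 passed the filter and 3 were at 0 in all 12 libraries. Apart from LOC_Os02g31030 and LOC_Os08g42390, 4 passed, and limma called none of these 4 in the mutant at low Pi, where 1 had an unadjusted p below 0.05, against 5848 of 17630 tested genes. LOC_Os08g39350 was the most abundant, between 23.63 and 45.44 FPKM. LOC_Os01g55780 lay between 9.73 and 16.83 FPKM, with a log2 fold to low Pi in the mutant of 0.33 ± 0.14 (SE), and LOC_Os11g12800 between 2.71 and 4.04 FPKM, with -0.22 ± 0.12. LOC_Os03g40670 differed in pattern. It was at 4.01, 2.26 and 4.28 FPKM in WT at high Pi and at 6.46, 5.87 and 6.84 FPKM with low Pi. In the mutant the means were 1.74 ± 0.56 FPKM (SD, n = 3) with high Pi and 1.99 ± 0.43 FPKM with low Pi. Its mutant libraries thus lay below its WT low-Pi libraries at both supplies, and its log2 fold of mutant over WT at high Pi was -0.71 with an adjusted p of 0.0749 (limma).

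**Figure D4:**
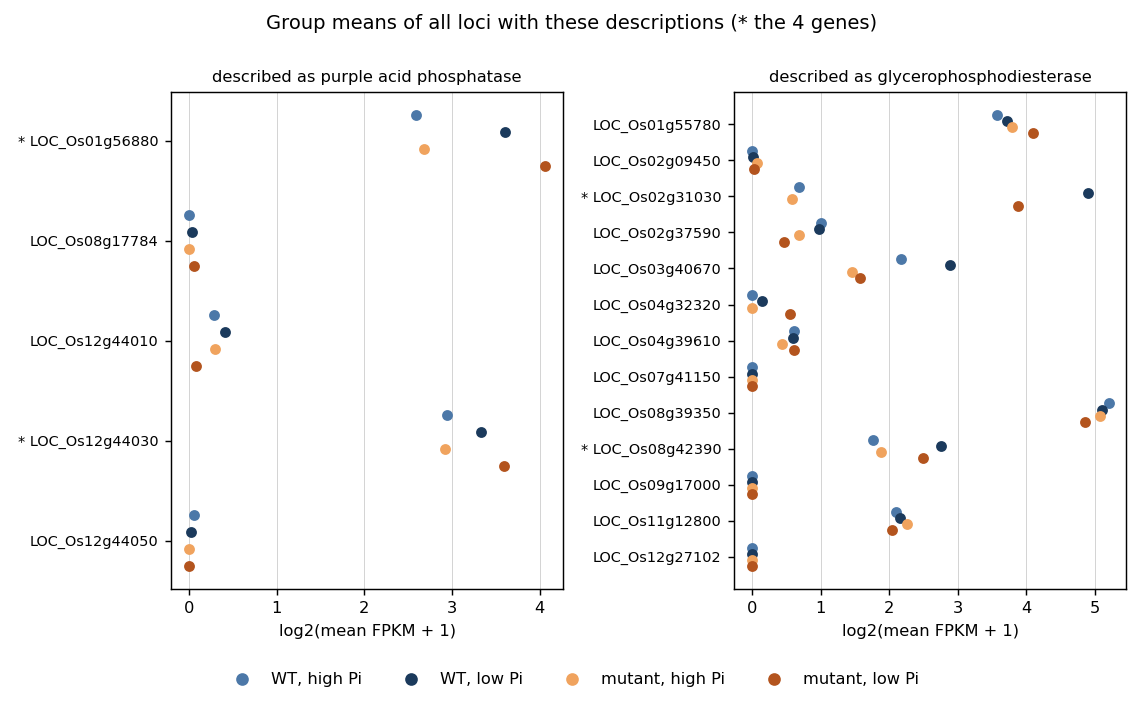
Group means as log2(mean FPKM + 1) (x axis) of the 5 loci described as purple acid phosphatase and the 13 described as glycerophosphodiesterase (y axis, the 4 genes starred), coloured by group. LOC_Os02g31030 spans the widest range of group means, from 0.50 to 28.9 FPKM, while LOC_Os08g39350 stays high in each group.

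Other genes of Pi supply and lipid turnover were counted by list in the mutant at low Pi. Each count stands beside the 10.5% of all tested genes called higher and the 8.28% called lower, and with 2 to 14 loci tested per list no count is read as particular to its list. Of 12 other loci described as acid phosphatase, 8 passed the filter, with 0 called higher and 2 lower. LOC_Os03g48300, a histidine acid phosphatase gene, fell from 42.34, 48.85 and 43.59 FPKM to 29.95, 31.22 and 31.98 FPKM (log2 fold -0.52 ± 0.12, SE, adjusted p 0.0115, limma). LOC_Os03g60370 of the same description had a log2 fold of -0.38 ± 0.12 with an adjusted p of 0.0457 (limma), up to 0.152 over the alternatives. The list also takes in loci described as phosphatidic acid phosphatase-related, which act on a lipid. The median log2 fold of the list was -0.10, beside 0.0016 over all tested genes.

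Among phosphate transport loci, 5 of 17 passed the filter, with 2 called higher and 1 lower. LOC_Os06g29790, described as phosphate transporter 1, rose from 4.63, 4.93 and 3.67 FPKM to 11.16, 9.31 and 11.92 FPKM (log2 fold 1.13 ± 0.16, SE, adjusted p 0.00106, limma). LOC_Os04g10750, an inorganic phosphate transporter, rose by a log2 fold of 1.13 ± 0.19, adjusted p 0.00223 (limma), and the chloroplast transporter LOC_Os02g38020 had -0.62 ± 0.19, adjusted p 0.0404, up to 0.129 over the alternatives. Of 4 SPX domain loci, 2 passed and 1 was called: LOC_Os02g10780, at 1.99 ± 0.50 and an adjusted p of 0.018 (limma), up to 0.0604, the call being lost without mutant high-Pi library 3 or without either of mutant low-Pi libraries 1 and 3. LOC_Os06g40120 had 1.29 ± 0.44 and an adjusted p of 0.0624, from 0.0162 to 0.172 over the alternatives, and was called in the fit to 6 libraries and without WT low-Pi library 1 or 3.

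Galactolipids and sulfolipids replace phospholipids in Pi-starved plant membranes. Of 7 loci for their synthesis, all of which passed the filter, 1 was called higher and 2 lower in the mutant at low Pi. The digalactosyldiacylglycerol synthase gene LOC_Os04g34000 rose from 0.55, 0.54 and 0.48 FPKM to 2.29, 1.17 and 2.30 FPKM (log2 fold 0.91 ± 0.19, SE). It too passed the filter only through its low-Pi libraries, and its adjusted p with no filter was 0.012 (limma). LOC_Os11g05990, of the same description and far more abundant, fell from 55.22, 48.14 and 38.92 FPKM to 24.05, 28.35 and 19.64 FPKM (-0.95 ± 0.15, adjusted p 0.0015, limma). The monogalactosyldiacylglycerol synthase gene LOC_Os09g25580 fell by 0.72 on the log2 scale, adjusted p 0.0104 (limma).

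Phospholipases C and D also act on membrane lipids. Of 31 phospholipase and phosphoesterase loci, 14 passed and 2 were called higher. LOC_Os03g61130, a phosphoesterase family gene, had a log2 fold of 0.51 ± 0.12 (SE), adjusted p 0.0135 (limma), and LOC_Os06g44060, a phospholipase D gene, had 0.54 ± 0.15, adjusted p 0.029. Dropping library 2 of the mutant, from either supply, ended the call of LOC_Os03g61130. That of LOC_Os06g44060 ended with no filter, in the fit to 6 libraries, and when the mutant's high-Pi libraries 2 or 3, or its low-Pi library 3, were dropped. Of 7 ribonuclease T2 loci, whose enzymes cut RNA, 4 passed and limma called 0, with 1 at an unadjusted p below 0.05. In the mutant against WT at high Pi, 1 gene over these lists was called, a phospholipase locus that was higher. In that contrast 3.58% of all tested genes were called in either direction, so this count is not read as particular to the lists.

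The genes most like each of the 4 in profile were found by the root mean square (RMS) difference of log2(FPKM + 1) over the 12 libraries, after each gene's own mean was subtracted, among 13188 described genes. This is a description of these libraries, which share their groups and normalization. The RMS of each gene from its own mean, its distance to a flat profile, was 1.87 for LOC_Os02g31030 and 0.64 for LOC_Os01g56880. It was 0.31 for LOC_Os12g44030 and 0.48 for LOC_Os08g42390. The medians over candidates given below are near or above these values, so they are no measure of likeness by chance. For LOC_Os02g31030 the nearest was the SPX domain gene LOC_Os02g10780 at 0.65, followed by LOC_Os03g15910, a membrane protein, at 0.69, where the median over candidates was 1.86. Next came LOC_Os01g50622, described as DNA-binding protein DSP1, at 0.73 and LOC_Os03g47610, described as thiamine biosynthesis protein thiC, at 0.74. In WT low-Pi libraries 1, 2 and 3, LOC_Os03g47610 was at 51.50, 60.22 and 72.07 FPKM, the order of LOC_Os02g31030 and LOC_Os02g10780 with a far smaller spread. LOC_Os03g15910 was at 19.84, 24.63 and 23.87 FPKM and LOC_Os01g50622 at 11.59, 6.20 and 14.50 FPKM, in other orders.

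For LOC_Os01g56880 the nearest 4 were LOC_Os06g04190 (described as rad1) at 0.18, LOC_Os09g15810 (bifunctional protein folD) at 0.22, the phosphate transporter gene LOC_Os06g29790 at 0.22 and LOC_Os12g02830 (SNF7 domain) at 0.22, beside a median of 0.67. LOC_Os12g44030 was nearest to LOC_Os07g07480 (HNH endonuclease domain) at 0.11, then to LOC_Os01g37130 (protein phosphatase 2C), LOC_Os01g74000 (glycerol-3-phosphate dehydrogenase) and LOC_Os01g68480 (thioredoxin), each at 0.15, beside a median of 0.39. LOC_Os08g42390 was nearest to LOC_Os10g05230 (C3HC4 zinc finger) and LOC_Os01g52500 (NADP-dependent malic enzyme), both at 0.18, and to LOC_Os03g50510 (threonine dehydratase) and LOC_Os02g42850 (MYB family), both at 0.20, beside a median of 0.50. At high Pi, LOC_Os06g04190 reached at most 0.25 FPKM, LOC_Os02g42850 0.71 and LOC_Os01g50622 0.70. These genes passed the filter only through low-Pi libraries, and at such levels the log2(FPKM + 1) scale compresses differences. LOC_Os01g74000 had 1.04 FPKM in WT high-Pi library 2 and at most 0.98 FPKM in the other high-Pi libraries. It too would not have passed without its low-Pi libraries. No member of the set was among the nearest 4 of another. Within the set the RMS difference was smallest between LOC_Os01g56880 and LOC_Os08g42390, at 0.37, and largest between LOC_Os12g44030 and LOC_Os02g31030, at 1.65.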

How the data were processed

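Total RNA of rice leaf blades was sequenced in 12 libraries. The deposited tables hold FPKM made by the authors, per the file headers, and the submitters' processing notes list StringTie 1.3.6, HISAT2 2.0.5 and CASAVA 2.17. The sources used here do not give the build, the gene models or the treatment of multi-mapping reads. Of the 4 tables, 2 held each library, with identical values for 12 of 12 libraries. The unlabelled columns, 2 in number with 6 filled cells, were not used. Gene names are the tables' descriptions: 0 IDs matched the supplied gene table. The files give no read counts, and ratios of low FPKM values over 66 pairs of libraries showed no steps of single reads (in windows 0.1 wide in log2, the fullest took a median of 6.46% of ratios), so depth is unknown and no counting interval is given.

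The tested set was 17630 genes whose FPKM reached 1 in 3 or more libraries, on the scale log2(FPKM + 1). A linear model with a mean for each of 4 groups was fitted to all 12 libraries by limma 3.58.1 under R 4.3.3, with no block. Moderation used a mean trend, tests were two-sided, and the Benjamini-Hochberg adjustment ran over all tested genes. The fit was tested on simulated data. Tables and figures used Python 3.11.15 with pandas 2.3.3 and matplotlib 3.10.9. The members and lists were chosen with earlier results of these data known. Named genes were the members, up to 4 genes of each list with the smallest p in the mutant, the 4 most alike in profile to each member, and LOC_Os06g51220; LOC_Os08g06110, LOC_Os03g37130, the loci beside LOC_Os12g44030 and the genes named from lists by annotation term were chosen after their values were seen. Alternatives were a pseudocount of 0.1, no filter or a filter at FPKM 5, 2 scalings, a replicate block, fits to 6 libraries, and each library left out in turn. Groups of 3 were not tested for outlying samples.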

Additional observations from a re-analysis of the deposited data

How the results depend on the processing

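In the mutant, the low-Pi calls of LOC_Os01g56880 and LOC_Os12g44030 held in 19 of 19 alternatives each, with log2 folds of 1.25 to 1.52 and 0.60 to 0.78. The fold of LOC_Os02g31030, which passed the filter through its low-Pi libraries alone, ran from 3.15 to 4.51. LOC_Os08g42390 kept its log2 fold of 0.66 but lost the call with no filter (adjusted p 0.0853), with the filter at FPKM 5 (0.0535), in the fit to 6 libraries (0.107) and with the replicate block (0.0785). With 1 library left out its fold ran from 0.45 to 0.91, and the call was lost for each library except mutant high-Pi library 1, with adjusted p up to 0.1399 (limma). The cause was not tested. The number of genes called in that contrast, 3307, ran with 1 library left out from 1985 (without mutant low-Pi library 2) to 3319, and was 2012 without mutant high-Pi library 2. Mutant against WT at high Pi, 631 genes were called, but 417 with the filter at FPKM 5, 312 with the replicate block, 108 in the fit to 6 libraries, which has fewer samples, and from 176 to 845 with 1 library left out: 212, 263 and 176 without WT high-Pi libraries 1, 2 and 3, and 210 and 217 without mutant high-Pi libraries 2 and 3. None of the 4 genes was called there in any alternative run. LOC_Os02g31030 failed the filter in the 6-library fit of that contrast, so it has no value there. For LOC_Os02g31030 in WT, the low-Pi log2 fold was 4.88 with a pseudocount of 0.1 and 2.91 without WT low-Pi library 3. No pairing of libraries by replicate number was seen, although groups of 3 are too small to settle it. Over 18 pairs the correlation of deviations from group means ran from -0.38 to 0.34, with 3 above 0.1. Of 12 libraries, 0 correlated best with their own number. With an FPKM below 1 at high Pi and unknown depth, ratios of LOC_Os02g31030 are imprecise.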

Other observations

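Further loci carried the annotation acid phosphatase activity under other descriptions. This list was chosen after values were seen, and it is given by counts. Of 39 such loci outside the description list and the 4 genes, 21 passed the filter, and in the mutant at low Pi 6 were called higher and 1 lower (limma), beside 10.5% and 8.28% of all tested genes. LOC_Os01g09540, a HAD superfamily phosphatase gene, rose from 0.52, 3.26 and 2.35 FPKM to 11.98, 14.02 and 11.15 FPKM (log2 fold 2.26 ± 0.31, SE). At high Pi it was called lower in the mutant than in WT, which had 4.65, 6.0 and 8.0 FPKM (log2 fold -1.35, adjusted p 0.0418, limma), a call lost in 13 of 19 alternatives. LOC_Os06g36400 of the same description rose by a log2 fold of 1.34 ± 0.16. The nucleotide pyrophosphatase/phosphodiesterase genes LOC_Os12g38750 and LOC_Os01g58640 rose by 1.70 ± 0.23 and 1.58 ± 0.21, and LOC_Os03g13540, a Ser/Thr protein phosphatase family gene, by 1.56 ± 0.22. Each of these 5 calls of a rise held under the alternatives run. The other rise, of LOC_Os09g36290 (log2 fold 0.35 ± 0.11, adjusted p 0.0451, limma), and the fall, of LOC_Os07g02090 (-0.39 ± 0.092, adjusted p 0.0135), did not, with adjusted p up to 0.153 and 0.0554.

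Of 32 loci annotated to the cellular response to phosphate starvation, not counting LOC_Os01g56880, which carries the term too and was called higher, 24 passed the filter, with 3 called higher and 1 lower in the mutant at low Pi, near the 10.5% and 8.28% of all tested genes, so the counts are not read as particular to the list. LOC_Os03g09250, an inositol-3-phosphate synthase gene, fell from 55.78, 68.98 and 68.13 FPKM to 17.48, 12.52 and 11.22 FPKM (log2 fold -2.16 ± 0.16, SE, adjusted p 1.83e-05, limma). At high Pi it was higher in the mutant than in WT, which had 33.99, 28.30 and 28.34 FPKM (log2 fold 1.06, adjusted p 0.01, limma). LOC_Os01g72240, a uridine 5-monophosphate synthase gene, rose by 1.25 ± 0.14 and LOC_Os05g32140, an NAD dependent epimerase/dehydratase family gene, by 1.03 ± 0.17.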
